A study of Mus musculus with 15 samples.

Results

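The genes described here encode the proteins of the cytoplasmic ribosome. Members were taken by symbol from the protein-coding genes of the GENCODE M1 annotation of the mouse mm9 genome: Rpl or Rps followed by a number, the stalk genes Rplp0, Rplp1 and Rplp2, and Rpsa. Symbols of pseudogenes (55), the Rps6k kinases (10), and Rps4y2 and Rpl10l, which have a single exon, were left out. The rule gave 83 of the 22350 protein-coding genes: 42 of the large subunit, 31 of the small subunit, 3 of the stalk, 6 paralogues (Rpl3l, Rpl7l1, Rpl22l1, Rpl36al, Rpl39l and Rps27l) and Rps19bp1, which the symbol rule takes although its product binds a ribosomal protein and is not one. No measured value entered the rule. Of the members, 4 lie on the X chromosome (Rpl10, Rpl39, Rpl36a and Rps4x).

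A dividing cell makes these proteins together in matching amounts, and pluripotent cells transcribe the genes at very high rates. Their mRNAs characteristically begin in a run of pyrimidines, the feature through which growth signals set their translation. Acetylation of histone H3 at lysine 27 (H3K27ac) is known from active promoters and enhancers, while a single methyl group at lysine 4 (H3K4me1) marks enhancers and the shoulders of active promoters and is typically low at the start site itself, where lysine 4 carries more methyl groups.

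The study compared mouse embryonic stem cells (ESCs) of the J1 line with 2 kinds of expanded potential stem cells (EPSCs) derived from them by a change of medium. ESCs grew in serum with LIF and the inhibitors CHIR99021 and PD0325901, D-EPSCs in N2B27 and serum replacement with LIF, CHIR99021, dimethindene maleate and minocycline hydrochloride, and L-EPSCs in serum replacement with LIF, CHIR99021, PD0325901, A-419259, XAV939, JNK inhibitor VIII and SB203580. Each state had 2 chromatin immunoprecipitation samples for H3K27ac, 2 for H3K4me1 and 1 input, 15 samples in all, but the files give 1 list of broad peaks per state and mark with positions only. All 3 states come from 1 line, and the medium and the state cannot be told apart. With 1 list per state and mark, no result below has a replicate check or a test. A peak called in one list and missed in another can differ little in signal, since peak heights and read depth are unknown here.

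The lists differed in size, and both EPSC comparisons use the same ESC lists. The H3K27ac lists held 64342 (ESC), 32782 (D-EPSC) and 26966 (L-EPSC) peaks over 107.4, 44.4 and 34.3 Mb, and the H3K4me1 lists 107222, 102751 and 105306 peaks over 221.1, 187.5 and 173.1 Mb. Of the pluripotency genes Pou5f1, Sox2, Nanog, Zfp42 and Esrrb, 4 had H3K27ac within 1 kb of the start site in every state (Esrrb had none at its annotated start), and of the fibroblast genes Col1a1, Col1a2, Col3a1, Thy1 and Postn, 0 had any. In what follows the window is the start site with 1 kb on either side (2001 bp), the start site is the 5′ end of the annotated gene, and a peak counts as present when it covers at least 1 base. Shares of members are read beside the same share over all 22350 genes.

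At 3 members with a pyrimidine run at or next to the annotated first base, the start carried H3K27ac and no H3K4me1 over the first base in all 3 states. These starts are printed from 60 bases before the start to 20 bases from it on, in mm9, with the longest run of C and T near the first base in capitals.
Rpl14 (chr9:120480572-120480651, plus strand): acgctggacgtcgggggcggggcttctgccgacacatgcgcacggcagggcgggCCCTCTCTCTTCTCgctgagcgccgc
Rplp1 (chr9:61762326-61762405, minus strand): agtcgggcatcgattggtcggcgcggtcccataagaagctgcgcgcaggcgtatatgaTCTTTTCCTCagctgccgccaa
Rps26 (chr10:128063543-128063622, minus strand): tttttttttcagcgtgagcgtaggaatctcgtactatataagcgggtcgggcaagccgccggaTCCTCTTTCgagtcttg
A run of at least 8 pyrimidines touched the 20 bases on either side of the annotated first base in 25 of 83 members (30.1%), against 16.1% of all genes, 21.5% of the translation factors, 13.2% of the mitochondrial ribosomal protein genes and 7.32% of the proteasome subunits. The 3 starts printed are examples from these 25, and others differed. Over the first base Rpl11 had H3K27ac in no state, Rps25 lacked it in ESCs and Rpl12 lacked it in L-EPSCs. A peak lay nearby in those lists: 7 to 27 bp away at Rpl11, 15 bp at Rps25 and 149 bp at Rpl12. Of all 83 members, 52 (62.7%) had H3K27ac there in all 3 states, against 12.2% of all genes. H3K4me1 was there in no state at 77 (92.8%), against 64.6%. A relation between the run and the marks was not tested. The strict form, a C at the first base with 4 pyrimidines after it, was present in 3 (Rps21, Rpl32 and Rpl14, 3.61%, against 2.11%), a count that depends on where the annotation puts the first base.

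In the promoter window from 250 bases before the start to 50 bases from it on, members did not stand apart in GC content (median 55.7%, against 55.3% of all genes) but held more CpG dinucleotides than all genes, with a median observed over expected ratio of 0.838 against 0.534. That ratio was alike in the mitochondrial ribosomal protein genes (0.821), the translation factors (0.815) and the proteasome subunits (0.789). The letters CCGGAAG, a form of the site of ETS factors such as GABPA, were found on either strand in 24 members (28.9%, against 10.8%), AAGATGG, a form of the YY1 site, in 10 (12%, against 6.72%), GGGCGG, the GC box of SP1, in 41 (49.4%, against 43.5%), and TATAAA in 10 (12%, against 13.4%). The ETS letters were as common in the mitochondrial ribosomal protein genes (35.5%), the translation factors (29.2%) and the proteasome subunits (29.3%). In the same order of lists the YY1 letters were found in 17.1%, 10.8% and 17.1%, and the SP1 letters in 47.4%, 75.4% and 65.9%. The ETS and YY1 letters can overlap by AAG, and a match is a string in the window, not a shown binding site.

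H3K27ac was present at nearly every ribosomal protein gene in every state. Within 1 kb of the start site it was found at 80 (ESC), 81 (D-EPSC) and 79 (L-EPSC) of the 83 members, against 35.7%, 35.3% and 28.8% of all genes. All 3 states had it at 78 members (94%), against 24.2% of all genes. When each list was cut to its widest peaks so that all covered the same number of bases, the ESC list kept 3725 peaks and its count was 4 members. The peak covered a median of 1483 (ESC), 1616 (D-EPSC) and 1197 bp (L-EPSC) of the 2001.

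**Figure D1:**
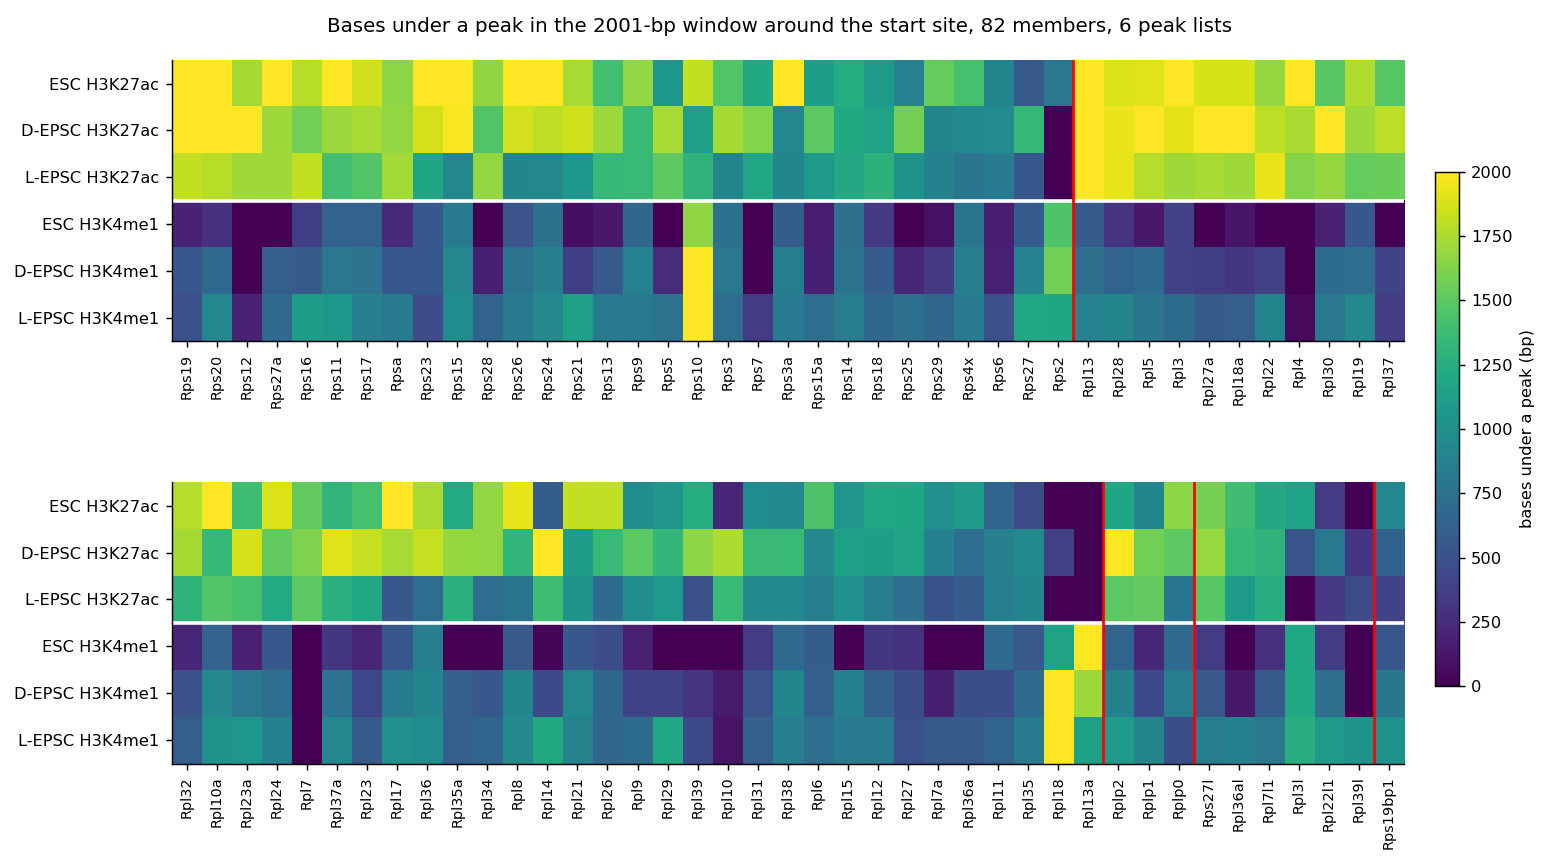
Each column is 1 of 82 members and each row 1 peak list; the colour gives the bases of the 2001-bp window under a peak, from 0 to 2001 bp. Red lines part the small subunit, large subunit, stalk, paralogue and binding protein genes, and the white line parts the marks: H3K27ac is high in nearly all columns, and H3K4me1 fills more of the window in both EPSC rows than in the ESC row, from a median over all 83 of 318 bp to 604 and 824 bp.

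The share was alike across the parts of the ribosome. In the small subunit, 31, 30 and 30 of 31 genes had H3K27ac in the window in ESCs, D-EPSCs and L-EPSCs, and in the large subunit 40, 41 and 40 of 42. All 3 stalk genes had it in every state: Rplp0, which anchors the stalk that recruits elongation factors, had 1656, 1494 and 787 bp of its window covered, Rplp1 915, 1572 and 1522 bp, and Rplp2 1182, 2001 and 1496 bp. The order of the states thus differed among these 3 genes, with ESCs highest at Rplp0 and lowest at the other two.

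Genes of the small subunit with well-known roles kept their peak throughout. Rpsa, which doubles as the laminin receptor, had 1652, 1676 and 1724 bp covered in ESCs, D-EPSCs and L-EPSCs. Rps15a had 1122, 1500 and 1080 bp. Rps6, the substrate of the S6 kinases, had 905, 969 and 828 bp, all downstream, with the peak beginning 1, 32 and 16 bp past the first base. Rps27, which has a paralogue in Rps27l, had 562, 1335 and 549 bp, while Rps27l, a p53 target, had 1590, 1691 and 1480 bp. The paralogue thus had more of its window acetylated than the parent gene in each state.

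In the large subunit, Rpl3, near the peptidyl transferase centre, had 2001, 1917 and 1717 bp covered, and Rpl22 1687, 1802 and 1935 bp. Rpl7 had 1518, 1616 and 1497 bp and its paralogue Rpl7l1 1210, 1302 and 1265 bp. Rpl36a, on the X, had 1093, 716 and 579 bp, and its autosomal copy Rpl36al 1389, 1333 and 1108 bp. Among the widest, taken over the 3 states, were those at Rpl13 (4088, 3915 and 3942 bp) and Rps19 (4055, 2923 and 2462 bp). Rps19 is the gene most often mutated in Diamond-Blackfan anaemia. Among members with a peak in all 3 states the narrowest lay at Rpl22l1 (355, 809 and 342 bp), Rpl7a (928, 876 and 508 bp) and Rps19bp1 (931, 622 and 414 bp).

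Peaks at members were narrower in L-EPSCs than in ESCs, as they were over all genes. The widest peak in the window had a median of 2008 (ESC), 1784 (D-EPSC) and 1222 bp (L-EPSC), against 1365, 1004 and 833 bp over all genes with a peak. Among members with a peak in both lists, the median log2 ratio of widths to ESCs was -0.14 in D-EPSCs (79 members) and -0.68 in L-EPSCs (78 members), against -0.33 and -0.73 over all genes.

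The 5 members without H3K27ac in the window in at least 1 state were Rpl13a, Rpl18, Rps2, Rpl3l and Rpl39l. For the first 3 the annotated 5′ end is far from the common start: 7669 bp at Rpl13a, 3752 bp at Rpl18 and 2135 bp at Rps2. The common start is the one with the most transcripts, starts within 100 bp counted together and ties going to the 5′ most. It need not hold a majority: it held 8 of 13 transcripts at Rpl13a, 3 of 9 at Rpl18 and 3 of 8 at Rps2. Around that common start Rpl13a had 2001 bp of its window under H3K27ac in each state, Rpl18 597, 933 and 769 bp, and Rps2 1173, 1171 and 1069 bp. Counted at the common start, 82, 83 and 82 of 83 members had H3K27ac in the window, and 24 members in all had a common start more than 100 bp from the gene's end.

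The other 2 exceptions are paralogues whose start is not moved. Rpl3l (chr17:24864774-24873094, plus strand), the copy of Rpl3 used in heart and skeletal muscle, had 1158 bp of its window under H3K27ac in ESCs and 517 bp in D-EPSCs, but 0 bp in L-EPSCs, where the nearest peak was 7218 bp away. Rpl39l (chr16:10170319-10175004, plus strand), the copy of Rpl39 known from male germ cells, had none in ESCs, where the nearest H3K27ac peak was 22280 bp and the nearest H3K4me1 peak 21845 bp away. In D-EPSCs it had an H3K27ac peak of 315 bp, 74 bp downstream of the first base, and still no H3K4me1 within 21835 bp. In L-EPSCs it had an H3K27ac peak of 463 bp, with H3K4me1 peaks of 592 bp just upstream and 2922 bp downstream. Rpl39l was the member with a peak in both EPSC lists and none in the ESC list, and its D-EPSC peak was the narrowest of any member in that list.

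**Figure D2:**
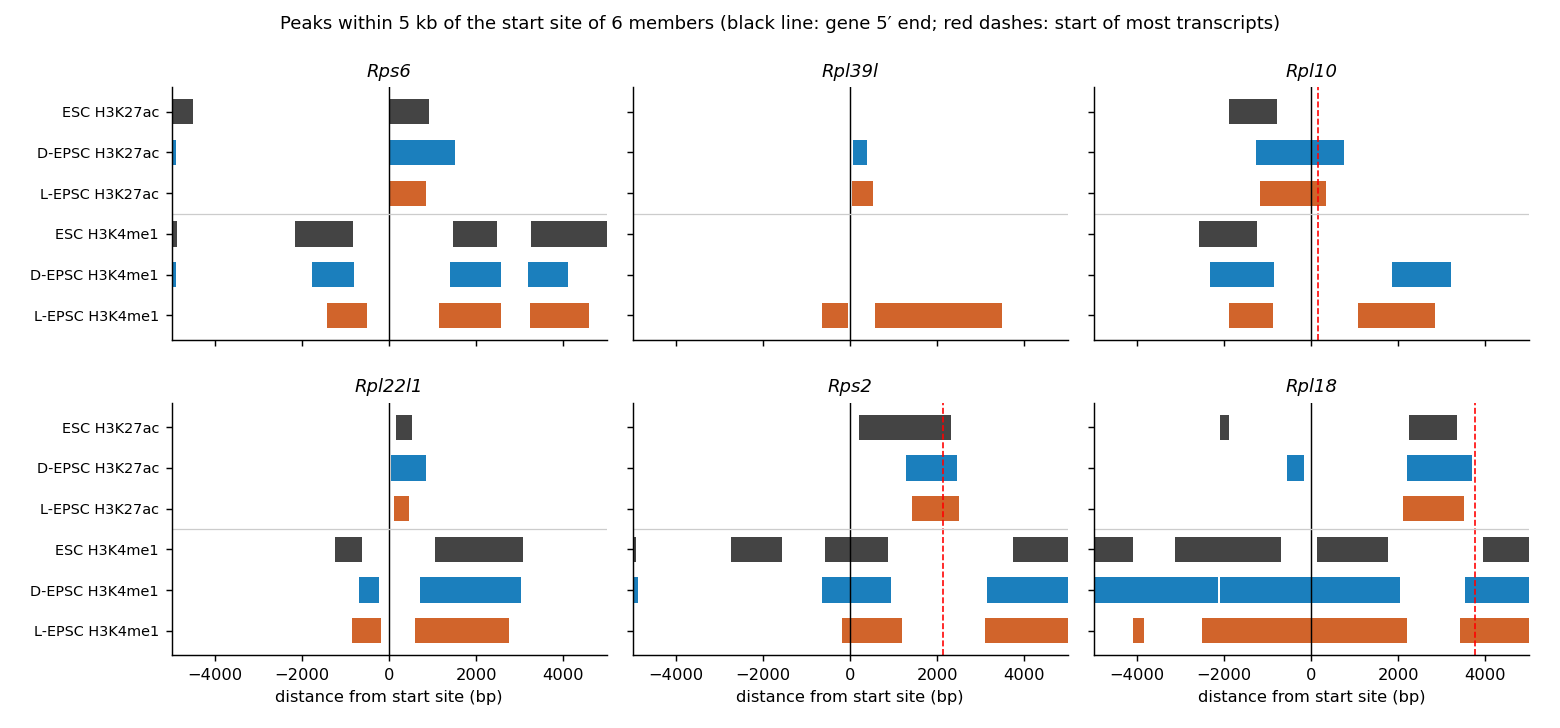
Bars are the peaks of the 6 lists (grey ESC, blue D-EPSC, orange L-EPSC) within 5000 bp of the start site of 6 members. They are drawn in the direction of transcription. The black line is the gene's 5′ end and red dashes the common start, which need not hold a majority of transcripts. At Rps6 and Rpl22l1 the H3K27ac peak at the start sits in a stretch free of H3K4me1 in ESCs and L-EPSCs. In D-EPSCs its downstream end overlaps an H3K4me1 peak at both genes. At Rpl39l the ESC rows are empty, and at Rps2 and Rpl18 the acetylated stretch lies near the red dashes.

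Starts of 3 of these genes and of Rps10 are shown because they differ in CpG content. Those of Rps2 and Rpl3l, close to each other on chromosome 17, hold almost none.
Rps2 (chr17:24855001-24855080, plus strand): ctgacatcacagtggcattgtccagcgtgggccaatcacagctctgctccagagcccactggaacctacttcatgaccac
Rpl3l (chr17:24864714-24864793, plus strand): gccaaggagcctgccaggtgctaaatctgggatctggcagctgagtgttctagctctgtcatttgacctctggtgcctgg
Rps10 (chr17:27773555-27773634, minus strand): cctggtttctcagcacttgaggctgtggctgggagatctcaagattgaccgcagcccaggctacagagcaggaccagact
Rpl39l (chr16:10170259-10170338, plus strand): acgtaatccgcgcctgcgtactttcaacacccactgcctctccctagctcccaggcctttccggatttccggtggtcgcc
Rpl3l, Rps2 and Rps10 had the lowest observed over expected CpG ratios of all 83 members (0.0882, 0.148 and 0.215), while Rpl39l had 0.827. The same 3 promoters were among the 4 members with H3K4me1 over the first base in all 3 states, the other being Rpl13a (0.57). At Rps2, Rps10 and Rpl13a the common start lay elsewhere, so the letters shown for Rps2 and Rps10 are not those of the common start.

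Over the first base itself, H3K27ac was less uniform. It covered the base at 68 (ESC), 69 (D-EPSC) and 56 members (L-EPSC), against 21.5%, 24.4% and 17.4% of all genes, and at 52 members (62.7%) in all 3 states, against 12.2%. In ESCs and not in D-EPSCs it was found at 6 members (7.23%, against 5.51% of all genes), and in ESCs and not in L-EPSCs at 16 (19.3%, against 8.41%). In the other direction 7 members had it in D-EPSCs and not in ESCs (8.43%, against 8.45%) and 4 in L-EPSCs and not in ESCs (4.82%, against 4.38%). The share over all genes includes the many that had the mark in no state, so it is low by construction beside a list that is nearly all acetylated. Of the 4795 genes with the mark there in ESCs, 1232 lacked it in D-EPSCs and 1880 in L-EPSCs. Of the 68 such members, 6 and 16 did, a smaller part in each case. When any annotated transcript start counted, 2 members had it in ESCs and not in D-EPSCs and 8 in ESCs and not in L-EPSCs. With lists of equal covered bases these counts were 0 and 0. The ESC list then kept only its 3725 widest peaks of 64342, so few members could be counted and these zeros cannot decide the question.

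Where the first base differed, a peak mostly remained nearby. Of the 16 members covered in ESCs and not in L-EPSCs, 11 had an L-EPSC peak within 100 bp, the median distance was 78.5 bp, and at 14 the L-EPSC peak lay mostly downstream. The exception was Rpl3l, with no peak within 7218 bp. Rpl12, which forms the base of the stalk, had 1201, 1122 and 852 bp of its window covered in ESCs, D-EPSCs and L-EPSCs. Its L-EPSC peak began 149 bp away, and its common start, 170 bp from the annotated one, was covered in all 3 states. Rps19bp1 had 931, 622 and 414 bp, and its L-EPSC peak was 154 bp away. Rpl30 had 1488, 2001 and 1688 bp, and its nearest ESC peak began 144 bp downstream of the first base. The common start of Rpl30, 381 bp from the annotated one, was under H3K27ac in all 3 states.

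The 4 genes on the X all differed at the first base. Rpl10 (chrX:71516151-71518474, plus strand) had 217 bp of its window under H3K27ac in ESCs, from a peak ending 784 bp upstream, and 1757 and 1346 bp in D-EPSCs and L-EPSCs, whose peaks ran over the start. Rpl39 had 1238, 1659 and 500 bp in ESCs, D-EPSCs and L-EPSCs, with the first base covered in D-EPSCs only. Rps4x, whose human counterpart escapes X inactivation, had 1419, 959 and 784 bp, and Rpl36a 1093, 716 and 579 bp; both were covered in ESCs only, with the EPSC peaks 42 to 91 bp away. So Rpl10 and Rpl39 had more H3K27ac in D-EPSCs than in ESCs, and Rps4x and Rpl36a less. The autosomal members that differed were 19 of 79 (24.1%), and over all genes 9.66% of those on the X and 18.9% of the others differed. Among genes with H3K27ac on the first base in any state, these shares were 85.7% on the X and 59.9% elsewhere, against 26.8% for the autosomal members.

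H3K4me1 lay beside the start sites and not on them. Over the first base it was found at 4 (ESC), 5 (D-EPSC) and 6 members (L-EPSC), against 11.4%, 26.2% and 31.8% of all genes. It was found in D-EPSCs and not in ESCs at 1 member (Rpl18, 1.2%, against 16.5% of all genes), in L-EPSCs and not in ESCs at 2 (Rpl18 and Rpl10a, 2.41%, against 22.2%), and in both EPSCs and not in ESCs at 1 (1.2%, against 14.6%). While the share of all genes with H3K4me1 on the first base was higher in both EPSCs than in ESCs, the members' counts differed by 1 and 2 genes.

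The count depends on the start that is used. At the common start it was 1, 2 and 2 members (all genes 11%, 25.6% and 31.2%). When a member counted if any of its annotated transcript starts was covered, it was 24, 28 and 32 of 83 (28.9% in ESCs), and the difference from all genes was 4.42, -3.94 and -3.14 percentage points in the ESC, D-EPSC and L-EPSC lists. Members have short genes, with a median length of 3368 bp against 15427.5 bp.

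**Figure D3:**
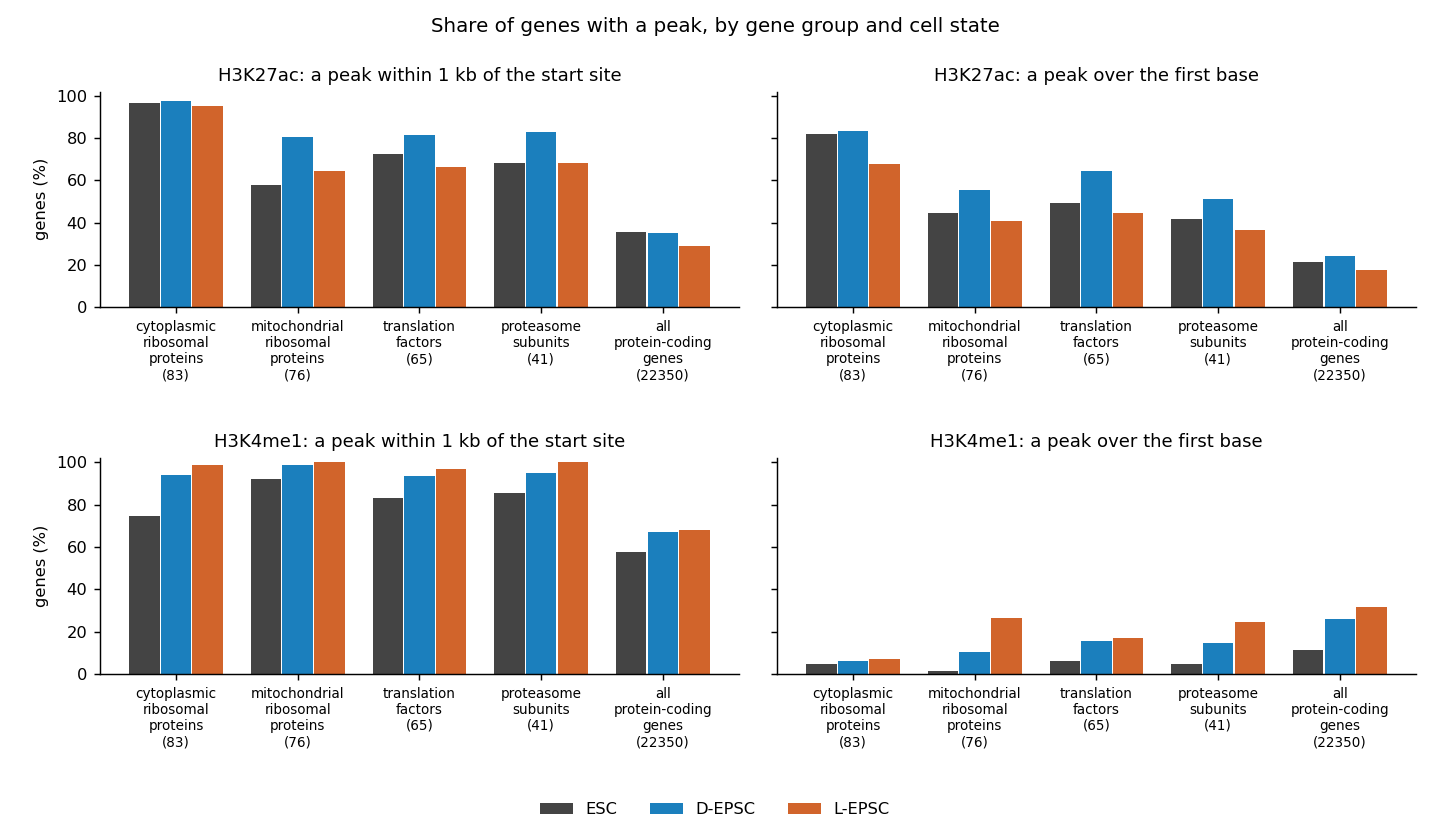
Bars give the percent of genes with a peak within 1 kb of the start site (left) or over the first base (right) for H3K27ac (top) and H3K4me1 (bottom), by gene group (number of genes in brackets) and state, 1 peak list per bar and so no error bar. H3K27ac is highest at the 83 members in every panel, and H3K4me1 over the first base, taken at the gene's 5′ end, lies between 4.82% and 7.23% at members while it reaches 26.3% at mitochondrial ribosomal protein genes in L-EPSCs.

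In other housekeeping gene lists, taken by symbol, the share with H3K4me1 on the first base was higher in the EPSCs. The 76 mitochondrial ribosomal protein genes (Mrpl and Mrps), which serve the organelle's own ribosome, had H3K4me1 there at 1, 8 and 20 genes in ESCs, D-EPSCs and L-EPSCs (1.32%, 10.5% and 26.3%). The 65 translation initiation and elongation factors (Eif and Eef) had it at 4, 10 and 11 (6.15%, 15.4% and 16.9%), and the 41 proteasome subunits (Psma to Psmd) at 2, 6 and 10 (4.88%, 14.6% and 24.4%). Genes with H3K27ac on the first base in all 3 states (2730, 52 of them members) had it at 4.76%, 15.2% and 22.3%. In ESCs the members' 4.82% lay near all of these, and in L-EPSCs their 7.23% was the lowest of the lists compared. When any annotated start counted, the members' share in L-EPSCs was 38.6%, above the translation factors (33.8%) and the proteasome subunits (36.6%). It was below the mitochondrial ribosomal protein genes (42.1%), the genes acetylated in all 3 states (40.4%) and all genes (41.7%).

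Within 1 kb, by contrast, more members had H3K4me1 in the EPSCs than in ESCs. It was found at 62 (ESC), 78 (D-EPSC) and 82 (L-EPSC) of the 83, against 57.5%, 67.1% and 68% of all genes. Both EPSCs and not ESCs had it at 16 members (19.3%, against 10.5%), and 0 members had it in ESCs and not in an EPSC. Compared with ESCs the window held more H3K4me1 bases at 75 members and fewer at 3 in D-EPSCs, and more at 75 and fewer at 7 in L-EPSCs. Over all genes it held more at 58.5% and 59%, and at the genes acetylated in all 3 states at 92.4% and 95%, so the members' 90.4% was near that of other acetylated genes. The ESC count depended on the window and on which peaks were kept: it was 32 with 500 bp on either side, 41 with the widest 50% of peaks and 33 with equal covered bases. Rpl7 was the member with none in the window in any state; its nearest H3K4me1 peak was 1823, 1363 and 1174 bp away.

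The members with the most window bases added in both EPSCs were Rpl18, Rpl15, Rpl23a, Rps27a, Rpl35a and Rpl5. Rpl18 had 1155 bp in ESCs and the whole 2001 bp in both EPSCs, over an annotated end that most of its transcripts do not use. Around its common start it had 798, 1214 and 1343 bp in ESCs, D-EPSCs and L-EPSCs. Rpl15 went from 0 bp to 883 and 822 bp, and Rpl35a, also tied to Diamond-Blackfan anaemia, from 0 to 602 and 597 bp. Rps27a, whose product is made as a fusion with ubiquitin, went from 0 to 604 and 702 bp. Rpl23a went from 180 to 802 and 1049 bp, and Rpl5, which with Rpl11 binds Mdm2, from 136 to 700 and 787 bp. H3K27ac covered the first base of the last 5 in all 3 states, so the added H3K4me1 lay beside acetylated starts.

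Of the 14 members with another protein-coding start within 1 kb (16.9%, against 12.1% of all genes), Rpl15, Rps27a and Rpl35a were 3. Their partners Nkiras1, 1700034F02Rik and Iqcg start 255, 159 and 235 bp away on the other strand, so beyond that distance the upstream side of these members is also the downstream side of the partner's start.

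The stretch without H3K4me1 around the first base was narrower in the EPSCs at every member where it could be measured. It was taken from the end of the nearest H3K4me1 peak upstream to the beginning of the nearest one downstream, for the 77 members whose first base was free in all 3 states. In ESCs it ran from 1419 bp (Rps27) to 46281 bp (Rpl36a) with a median of 2582 bp, in D-EPSCs from 944 bp (Rpl22l1) to 43724 bp (Rpl39l) with a median of 1621 bp, and in L-EPSCs from 589 bp (Rps19bp1) to 2574 bp (Rps4x) with a median of 1240 bp. It was narrower than in ESCs at 77 of 77 members in D-EPSCs and at 77 of 77 in L-EPSCs, and the order ESC, D-EPSC, L-EPSC from wide to narrow held at 75 (97.4%). Rplp0 (1871, 1147 and 1202 bp) was among the exceptions. With the widest 50% of each list alone the medians were 3847, 1952 and 3096 bp, so that the order of the EPSCs turned, and the stretch was narrower than in ESCs at 64 members in D-EPSCs and 54 in L-EPSCs.

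**Figure D4:**
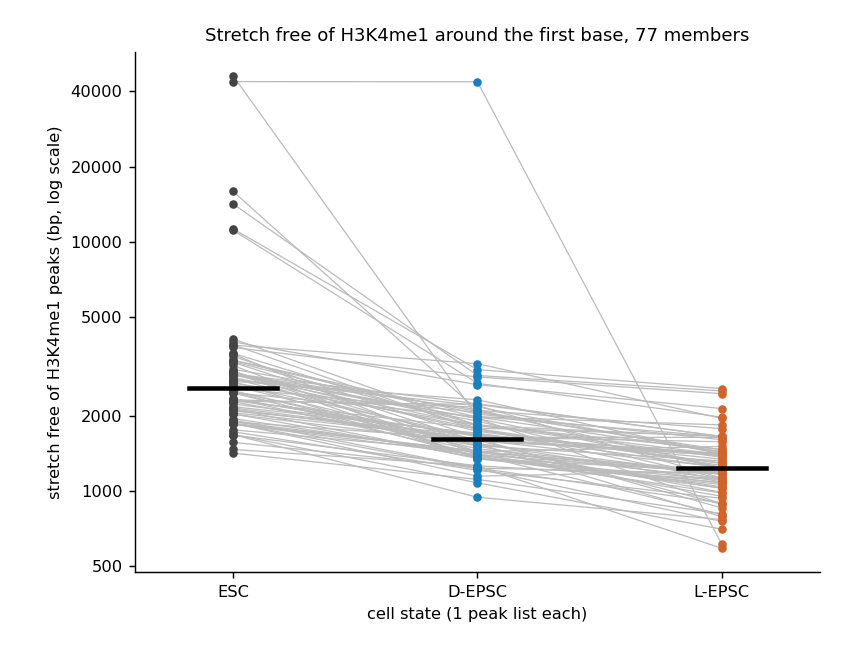
Each point is 1 of 77 members, its height the length in bp, on a log scale, of the stretch without H3K4me1 peaks around the first base; grey lines join a member's values and black bars are medians (2582, 1621 and 1240 bp). Every line falls from ESC to both EPSCs, and the D-EPSC point far above the rest, at 43724 bp, is Rpl39l.

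This narrowing was shared with other acetylated genes. Of the 2081 genes with H3K27ac on the first base in all 3 states and no H3K4me1 there in any, it was narrower in D-EPSCs at 99% and in L-EPSCs at 99.3%, and the full order held at 88.1%; their medians were 2125, 1405 and 1130 bp. Over all genes free of the mark (14275) the shares were 80.5%, 83.1% and 58.7%. The edges of the stretch were taken over every gene whose first base was free in the state concerned (79, 78 and 77 members and 2599, 2316 and 2122 acetylated genes). Downstream, H3K4me1 began at a median of 1791, 1210 and 937 bp from the first base of members in ESCs, D-EPSCs and L-EPSCs, against 1178, 832 and 700.5 bp for the acetylated genes, while upstream it ended at 704, 406 and 275 bp, against 752, 448.5 and 374 bp. The ESC list, with the widest free stretch, is the one that covers the most bases genome-wide.

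Within 1 kb on either side, where the means below were taken, the marks were skewed in opposite directions around the first base. H3K27ac covered a mean of 615.7 bp upstream and 788 bp downstream of members' first base in ESCs, 580.2 and 880.6 bp in D-EPSCs, and 384.5 and 756.7 bp in L-EPSCs, so the upstream part was the smaller in each state and lowest in L-EPSCs. H3K4me1 covered 334.8 bp upstream and 57 bp downstream in ESCs, 545 and 86.7 bp in D-EPSCs, and 623.7 and 183.4 bp in L-EPSCs. By distance from the first base, the share of members under H3K27ac was highest 300, 350 and 300 bp downstream in the ESC, D-EPSC and L-EPSC lists (91.6%, 94% and 94%). The share under H3K4me1 was highest 3650, 3200 and 2500 bp downstream (86.7%, 92.8% and 96.4%), above the maximum at acetylated genes (77.9%, 84% and 85.6%). The median gene length was 3368 bp for members and 23046.5 bp for the acetylated genes. A distance of 3650 bp thus lies past the annotated end of most members, so these maxima do not compare like parts of genes. Farther out the skew differed from that within 1 kb. At 3000 bp downstream H3K4me1 covered 84.3%, 92.8% and 88% of members, and at 3000 bp upstream 43.4%, 34.9% and 21.7%. H3K27ac covered 10.8%, 12% and 3.61% of members at 2000 bp downstream and 34.9%, 1.2% and 1.2% at 2000 bp upstream.

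**Figure D5:**
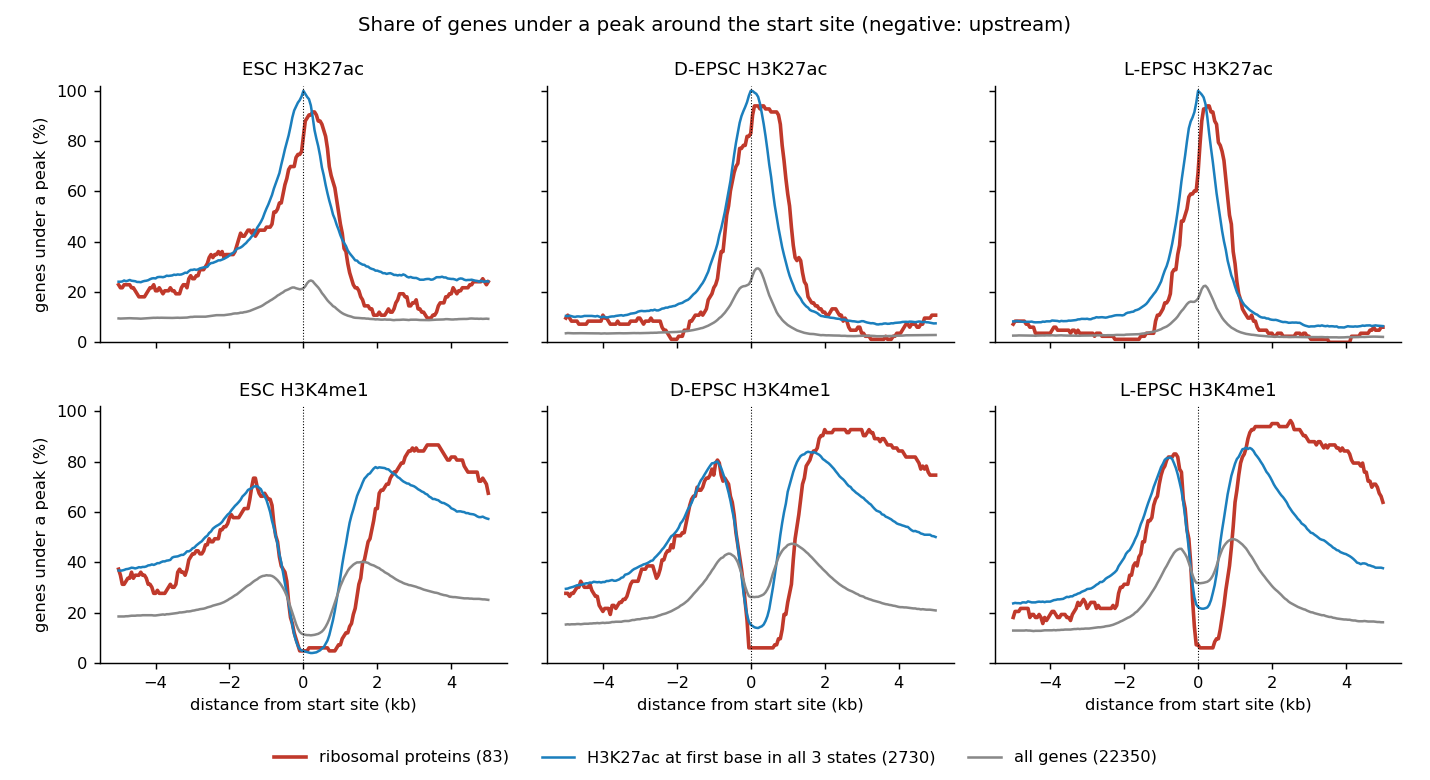
Lines give the percent of genes under a peak at each distance, in kb, from the start site (negative values upstream) for the 83 members (red), the 2730 genes with H3K27ac on the first base in all 3 states (blue, 100% at 0 by construction) and all 22350 genes (grey), 1 panel per list. Members reach 91.6% to 94% under H3K27ac 300 to 350 bp downstream, and their H3K4me1 trough is deeper in the EPSC panels and reaches farther downstream than that of the blue genes.

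The position of H3K4me1 around acetylated starts differed between the lists, over sets of members that also differ by state. Of the 68 members with H3K27ac on the first base in ESCs, 2 had H3K4me1 in the window on both sides of it, 46 upstream only and 17 neither. Of the 69 in D-EPSCs, 12 had it on both sides, 49 upstream only and 4 neither, and of the 56 in L-EPSCs, 35 had it on both sides, 18 upstream only and 1 neither. The mitochondrial ribosomal protein genes already had it on both sides at 19 of 34 in ESCs, 30 of 42 in D-EPSCs and 22 of 31 in L-EPSCs, and the translation factors at 2 of 32, 16 of 42 and 15 of 29. Over all genes with H3K27ac on the first base the share with H3K4me1 on both sides was 24.5%, 56.3% and 58.3%, against 2.94%, 17.4% and 62.5% of members.

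All 4 X-linked members had a long free stretch in ESCs. Of the 6 members where it exceeded 10000 bp in ESCs, 4 were all those on the X: Rpl36a (46281 bp, then 1984 and 1841 bp in D-EPSCs and L-EPSCs), Rpl39 (14174, 2906 and 2519 bp), Rps4x (11255, 3069 and 2574 bp) and Rpl10 (11111, 2704 and 1976 bp). The other two were Rpl15 (15905, 2108 and 1779 bp) and Rpl39l (43807, 43724 and 611 bp). Around X-linked genes as a whole H3K4me1 was sparser in the ESC list: of the 932, 14.1% (ESC), 38.9% (D-EPSC) and 42.5% (L-EPSC) had it within 1 kb, against 59.4%, 68.3% and 69.2% of the 21418 autosomal genes. The part of this chromosome-wide difference in the members' values was not tested.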

How the data were processed

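The authors trimmed paired-end reads with Trim Galore 0.6.3 after FastQC 0.10.1, aligned them to mm9 with Bowtie2 2.3.5, handled them with SAMtools 1.10 and ran MACS2 in its broad mode with the input as control. The thresholds and whether replicates were pooled are not given in the sources used here. The deposited lists hold no score, signal or count, only chromosome, start and end, so the depth behind a peak is unknown. Groups came from the sample titles.

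Overlaps were computed in Python 3.11.15 with numpy 2.4.6 and checked on simulated intervals. Genes were the protein-coding genes of GENCODE M1 on 20 chromosomes, with sequence from the matching mm9 genome. Comparison lists were taken by symbol. Counts, medians and shares are given with no test, since each state and mark has 1 list. Members, lists and measures were chosen with earlier results of these data known.

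Named genes were members without H3K27ac in the window in a state, the 6 with the longest gap to a peak among those whose first base differed, the 3 widest and 3 narrowest H3K27ac, the 6 with the most H3K4me1 bases added in both EPSCs, and a fixed set (Rplp0, Rplp1, Rplp2, Rpsa, Rps15a, Rps6, Rps4x, Rps19bp1, and paralogues with their parent genes). Rps10, Rpl10a, Rpl32, Rpl14, Rps26, Rps21, Rpl11 and Rps25 were named after their values were seen. The values of 1 member that the rule names and 1 start sequence are not reported here. Alternatives changed the window, the start, the peaks kept, the list length and the members.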

Additional observations from a re-analysis of the deposited data

Results flagged for a closer look

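The number of members with H3K27ac moved in opposite directions in the 2 EPSC states relative to the ESC list. Over the first base the D-EPSC count was higher than the ESC count by 1 and the L-EPSC count differed from it by -12, and within 1 kb of the start site the differences were 1 and -1. Each count rests on 1 list, both comparisons use the ESC list, and the difference was not tested. Over all genes the share with H3K27ac on the first base also moved up in D-EPSCs (24.4%) and down in L-EPSCs (17.4%) from the ESC value of 21.5%.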

How the results depend on the processing

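Each value was recomputed under each alternative that bears on it (the window settings do not bear on the first base, and the 50% share was run for the window counts alone); counts and medians are taken as moved beyond 1.5 times, and percentage-point differences beyond the 95% Wilson interval of the members' share. Without Rps19bp1 and the paralogues, with the single-exon copies, with peaks of at least 500 bp and with lists of equal length, no count or median moved that far. The common start, and all alternatives for the stretch free of H3K4me1, were chosen after seeing the data. With 500 bp either side, the ESC H3K4me1 count was 32, the median L-EPSC H3K4me1 width 1193 bp, and the H3K4me1 differences from all genes 3.12, 9.01 and 21.9 points (ESC, D-EPSC, L-EPSC). With 2500 bp the ESC and D-EPSC H3K4me1 widths were 4013 and 4518 bp and the ESC difference 28.4. Requiring 50% of the window left 5, 5 and 18 members with H3K4me1 and 50 with L-EPSC H3K27ac.

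With any annotated transcript start, H3K4me1 was on a first base at 24, 28 and 32 members, in EPSCs and not ESCs at 4 (D-EPSC), 8 (L-EPSC) and 4 (both), and H3K27ac in ESCs and not an EPSC at 2, 8 and 2; the ESC and D-EPSC H3K4me1 widths were 2913 and 3632 bp. First-base differences from all genes became 4.42, -3.94 and -3.14 points for H3K4me1 and 65.8 (D-EPSC) and 65.7 (L-EPSC) for H3K27ac, and that from mitochondrial ribosomal proteins -3.55 in L-EPSCs. Those from proteasome subunits (2.03 and 1.97) and translation factors (1.43 and 4.71, D-EPSC and L-EPSC) turned direction, as did that from all genes in ESCs (-6.56 at the gene's end). The smaller D-EPSC difference from mitochondrial ribosomal proteins also changed sign, from -4.5 to 2.16, and so did the ESC differences from proteasome subunits and translation factors (-0.0588 to 2.09 and -1.33 to 4.3). The low first-base H3K4me1 of members thus does not hold when any annotated start counts; the cause was not tested.

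With the common start, first-base H3K4me1 counts were 1, 2 and 2 (1 in L-EPSCs and not ESCs). The first-base H3K4me1 differences from all genes were -9.79 (ESC) and -28.8 (L-EPSC). In the window the differences were 32 for L-EPSC H3K4me1 and 63.1, 64.7 and 70 for H3K27ac. First-base H3K4me1 differences from mitochondrial ribosomal proteins (D-EPSC) and translation factors (ESC) were -8.12 and -4.95. Peaks of at least 500 bp gave window differences of 64.9, 67.2 and 70.7 for H3K27ac and 32.9 for L-EPSC H3K4me1. The widest 50% of each list gave 41 members with ESC H3K4me1, a median ESC H3K4me1 width of 2428 bp, window differences of 65.6 (ESC) and 69.1 (D-EPSC) for H3K27ac and 16.3 (D-EPSC) and 25.2 (L-EPSC) for H3K4me1, and a free stretch of 3096 bp in L-EPSCs. Lists of equal length gave 65.3 for D-EPSC H3K27ac.

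Lists of equal covered bases keep 3725 of the 64342 ESC H3K27ac peaks, by construction only the widest. The ESC H3K27ac count was then 4 in the window and 4 on the first base (differences 0.766 and 1.47, 68.1 for D-EPSC in the window), the median width was 9465 bp, and ESC-not-EPSC counts were 0, 0 and 0. The ESC H3K4me1 count was 33, its width 2800 bp, the free stretch in ESCs 5982 bp, and first-base H3K4me1 was found in D-EPSCs and not ESCs at 2 members, and in both EPSCs at 2. The free stretch stayed narrower than in ESCs at 64 (D-EPSC) and 54 (L-EPSC) of 77 members with the widest 50% of each list, and at 75 and 77 with equal covered bases. No paired analysis was possible because the files hold 1 list per state and mark, and for the same reason no replicate could be left out.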

Other observations

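Small nucleolar RNAs, which guide modification of ribosomal RNA and are cut from introns, lay within the gene span of many members: 30 of 83 (36.1%, 58 such RNAs) were hosts in this sense, against 1.2% of all genes, 0 of 76 mitochondrial ribosomal protein genes and 9 of 65 translation factors. Their place in an intron was not checked. Host members had H3K27ac within 1 kb at 29, 28 and 28 of 30 in ESCs, D-EPSCs and L-EPSCs, and the 53 others at 51, 53 and 51. The median H3K27ac bases in the window were 1693, 1744 and 1409.5 bp at hosts and 1320, 1459 and 1049 bp at the others. H3K4me1 was present within 1 kb at 23, 28 and 30 hosts and at 39, 50 and 52 of the others.

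The single-exon copies that the rule leaves out differed from each other. Rps4y2 on chromosome 6 had 856, 1070 and 916 bp of its window under H3K27ac in ESCs, D-EPSCs and L-EPSCs, values within the range of members. Rpl10l on chromosome 12, a copy of Rpl10 known from the testis, had 0 bp in all 3 lists, with 1111 bp of H3K4me1 in L-EPSCs and 0 bp in the other two.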
